A study of Mus musculus with 12 samples.

Results

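The zinc finger genes numbered Zfp800 to Zfp999 were examined in the frontal cortex of mice with and without Upf3b. They are the rows of the count table whose symbol is Zfp followed by a 3-digit number that starts with 8 or 9, and there were 56 of them among 14909 genes. Bulk RNA sequencing libraries came from 7 wild-type (WT) and 5 Upf3b knockout (KO) mice, all C57BL/6 and 1 library per mouse. Upf3b is an X-linked gene and it encodes a factor of nonsense-mediated decay (NMD), which removes mRNAs that carry a premature stop codon. The kind of Upf3b allele, the substrain, the age and the sex of the mice are not stated in the labels.

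Most proteins with these names carry arrays of C2H2 zinc fingers, small zinc-binding folds that each contact a few bases of DNA. Many also begin with a KRAB box, which recruits the co-repressor KAP1 (encoded by Trim28). KAP1 in turn brings in the histone methyltransferase Setdb1, HP1 proteins and histone deacetylases, and the pathway is known for silencing endogenous retroviruses in embryonic cells. KRAB zinc finger genes multiply by tandem duplication, so they lie in clusters and resemble each other in sequence. The brain expresses many of them at low levels.

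All 56 genes had enough counts to be tested, and all matched a gene of the GENCODE M21 annotation (mm10) by symbol. They lie on 14 chromosomes, with 14 of them on chromosome 17 and 11 on chromosome 8. With genes less than 1 Mb apart placed together, 27 of them fell into 7 neighbourhoods of 2 or more. A coding sequence could be translated for 55. Their longest proteins held a median of 11 finger patterns, from 0 in Zfp839, Zfp935 and Zfp957 to 22 in Zfp808, and a pattern of the KRAB box was found in 43. The label of zinc finger genes therefore held for nearly all, while a KRAB box was not found in 12 of the 55, among them Zfp821, Zfp827, Zfp830 and Zfp831.

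Sequences upstream of 4 of these genes are shown because they include the riser and the faller with the smallest p values, Zfp938 and Zfp945, and 2 risers, Zfp946 and Zfp948, from the neighbourhood that holds Zfp945. Each is the 250 bases before the first listed start in RefSeq (GRCm38.p6, the same build as mm10), and none holds an annotated exon. Capitals mark any match on either strand to 6 motifs, none of which overlaps another in the stretches shown. NF-Y is known to bind CCAAT. Proteins of the Sp1 family bind the GC box GGGCGG. Basic helix-loop-helix factors bind the E-box CACGTG. ETS factors bind sites such as CCGGAAG. The other two motifs were the TATA box TATAAA and the CREB site TGACGTCA.
Zfp938, chr10:82241281-82241530, minus strand: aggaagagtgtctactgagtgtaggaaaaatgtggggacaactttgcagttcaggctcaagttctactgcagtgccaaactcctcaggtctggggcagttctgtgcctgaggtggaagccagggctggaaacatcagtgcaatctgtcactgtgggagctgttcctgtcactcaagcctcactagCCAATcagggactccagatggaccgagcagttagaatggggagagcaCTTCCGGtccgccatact
Zfp945, chr17:22867135-22867384, minus strand: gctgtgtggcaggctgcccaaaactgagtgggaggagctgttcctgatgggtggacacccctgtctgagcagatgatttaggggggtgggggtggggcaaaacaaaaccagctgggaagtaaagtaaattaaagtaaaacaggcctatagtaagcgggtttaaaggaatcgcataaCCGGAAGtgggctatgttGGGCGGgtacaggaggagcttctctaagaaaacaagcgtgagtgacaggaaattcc
Zfp946, chr17:22423952-22424201, plus strand: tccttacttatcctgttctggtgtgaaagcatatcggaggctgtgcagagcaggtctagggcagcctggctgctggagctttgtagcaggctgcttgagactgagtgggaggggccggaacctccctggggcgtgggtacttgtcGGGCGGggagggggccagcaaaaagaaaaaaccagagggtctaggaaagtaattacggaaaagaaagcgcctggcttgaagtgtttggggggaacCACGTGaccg
Zfp948, chr17:21566728-21566977, plus strand: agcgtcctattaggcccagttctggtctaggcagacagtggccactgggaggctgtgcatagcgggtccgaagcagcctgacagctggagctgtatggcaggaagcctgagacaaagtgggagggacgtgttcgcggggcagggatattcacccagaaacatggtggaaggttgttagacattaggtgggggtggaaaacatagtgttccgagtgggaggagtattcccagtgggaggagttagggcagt

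The upstream stretch of Zfp938 held 1 CCAAT and 1 CCGGAAG, that of Zfp945 held 1 GGGCGG and 1 CCGGAAG, that of Zfp946 held 1 GGGCGG and 1 CACGTG, and that of Zfp948 held none of the 6 motifs. A RefSeq start was listed for 50 of the 56 genes. CCAAT stood in 34 of these 50 stretches (68.0%), against 35.9% of 10866 stretches of the same length from tested genes. Among the called genes with a stretch it stood in 3 of 9 risers and 1 of 3 fallers. GGGCGG stood in 19 (38.0%, against 58.7%). CACGTG stood in 8 (16.0%, against 8.44%). CCGGAAG stood in 5 of the 50, against 12.7%. The TATA box stood in 1 (2.00%, against 6.29%), as did the CREB site (2.00%, against 2.80%). These shares describe letters and were not tested.

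Upf3b itself was measured first, as a check of the labels. It held 157 to 219 counts in the WT libraries and 11 to 24 in the KO libraries, with WT libraries averaging 38.3 ± 2.48 counts per 1000000 (CPM, scaled by TMM; SD, n = 7) and KO libraries 2.76 ± 0.877 CPM (SD, n = 5). On the log2 scale this was a difference of -3.78 ± 0.13 (SE; edgeR quasi-likelihood test, adjusted p = 7.21e-11). By an exact permutation test (two-sided, 792 arrangements) p was 0.00253, which is as small as this design allows. WT libraries totalled 4684039 to 5425774 counts. KO libraries totalled 4990643 to 6617759, so depth moved with the group, and KO 1 was the KO library nearest to WT in depth. Markers of cortical excitatory neurons were present in both groups, and 2 of 8 were called lower in KO, among them Slc17a7 at 397.7 CPM in WT and 334.5 in KO. Of the other lists, 3 of 5 microglial, 2 of 5 interneuron, 2 of 5 oligodendrocyte and 1 of 5 astrocyte markers were lower. In turn 2 of 3 endothelial and both oligodendrocyte precursor markers were higher. Over all tested genes 15.3% were called higher and 14.4% lower. With the density offsets described below 2 microglial markers stayed lower and 1 precursor marker stayed higher, and none of the others was called. There 8.32% of all tested genes were higher and 7.85% lower. Microglial markers summed to 372.4 to 465.4 CPM in WT libraries and 341.9 to 371.8 in KO, and precursor markers to 108.7 to 148.1 and 148.5 to 177.8 CPM.

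KO 2 and WT 4 stood apart in markers of neighbouring tissue. Markers of the striatum summed to 614.2 CPM in KO 2, against 261.2 to 355.2 CPM in the other KO libraries, and to 667.4 CPM in WT 4, against 186.1 to 488.1 CPM in the other WT libraries. Olfactory bulb markers summed to 37.2 CPM in KO 2 and 52.2 CPM in WT 4, against at most 14.8 CPM elsewhere. In KO 2 thalamus markers were also high, at 80.9 CPM against 19.6 to 42.8 CPM in the other 11 libraries, and choroid plexus markers, at 55.4 CPM, were exceeded by WT 5 alone (93.3 CPM). The same 2 libraries had the highest summed level of the zinc finger genes in their groups, and results are also given without them. The part of these cell types and tissues in the results below was not tested, and in bulk tissue fewer cells of a type and less RNA per cell cannot be told apart.

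The zinc finger genes changed little in KO. At an adjusted p under 0.05 over all 14274 tested genes, 10 of the 56 were higher in KO (17.9%) and 3 were lower (5.36%), while 43 were not called. Over all tested genes 15.3% were called higher and 14.4% lower, so the share of risers lay near the background of all genes. Both background shares changed with count density, as described below. The median log2 fold change of the 56 was 0.056, against 0.034 over all tested genes, and the median absolute value was 0.118 against 0.144. Fold changes were above 0 in 36 of the 56 (64.3%) and in 56.2% of all tested genes. Uncalled genes ran from -0.32 to 0.26 on the log2 scale. Another 286 Zfp-numbered genes, mostly with lower numbers, had 50 risers (17.5%) and 8 fallers (2.80%), with a median log2 fold change of 0.088. Without KO 2 and WT 4 there were 6 risers and 5 fallers among the 56, and 2166 and 2189 among all tested genes.

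**Figure D1:**
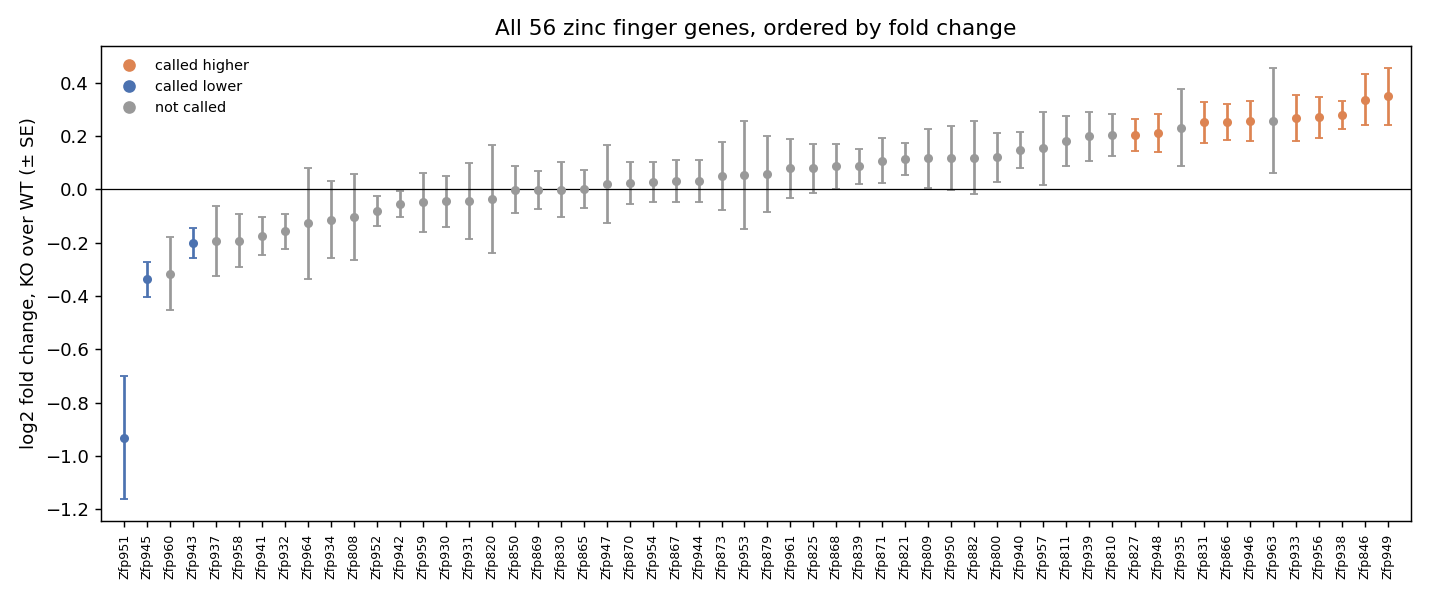
Log2 fold change of each of the 56 zinc finger genes, KO over WT, with its SE (vertical axis), ordered by value (horizontal axis); colour gives the call at an adjusted p under 0.05. Zfp951 stands apart at -0.93, and all other values lie between -0.34 and 0.35.

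The largest change was a fall of Zfp951, a gene with 10 finger patterns and a KRAB pattern on chromosome 5 (104813169 to 104860070, minus strand). Its level was 1.84, 4.20, 2.51, 3.54 and 5.60 CPM in KO 1, 2, 3, 4 and 6, while WT libraries ran from 4.28 through a median of 7.06 to 7.93 CPM. KO 6 lay inside the WT range and the other 4 KO libraries below it. WT averaged 6.83 ± 1.31 CPM (SD, n = 7), KO averaged 3.54 ± 1.47 CPM (SD, n = 5), and the log2 fold change was -0.93 ± 0.23 (SE, edgeR adjusted p = 0.00790). It is a weakly counted gene, with 9 to 34 counts in KO libraries and 20 to 42 in WT. The call held in each of the 12 fits that left out 1 library, with log2 fold changes from -1.15 to -0.79.

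The other 2 fallers, Zfp945 and Zfp943, belong to a neighbourhood of 8 of these genes on chromosome 17 (21567008 to 22867134). Zfp945, with 18 finger patterns, lies at 22846697 to 22867134 on the minus strand. It measured 31.3, 30.5, 37.0, 34.6 and 30.3 CPM in KO 1, 2, 3, 4 and 6, against 36.4, 42.7 and 43.7 CPM as lowest, median and highest in WT. Only KO 3 reached the lowest WT library, WT 4. The means of 41.5 ± 2.65 CPM in WT and 32.7 ± 2.94 in KO gave a log2 fold change of -0.34 ± 0.07 (SE, edgeR adjusted p = 0.00217).

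Zfp943, at 21962552 to 22071168 on the plus strand, fell less. KO libraries held 38.0, 37.3, 41.3, 39.2 and 34.6 CPM and WT libraries 40.8, 43.8 and 48.4 CPM as lowest, median and highest, so that KO 3 again overlapped WT. The log2 fold change was -0.20 ± 0.06 (SE, edgeR adjusted p = 0.0158). Its neighbour Zfp942, at 21926960 to 21962464 on the minus strand, had a log2 fold change of -0.055 ± 0.050 (SE) and was not called.

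In the same neighbourhood Zfp946 and Zfp948 rose. Zfp946 held 35.8, 39.2, 38.0, 36.9 and 32.9 CPM in KO 1, 2, 3, 4 and 6, and 27.6, 29.7 and 36.8 CPM as lowest, median and highest in WT. Its groups overlapped through WT 6, the highest WT library. The log2 fold change was 0.26 ± 0.07 (SE, edgeR adjusted p = 0.0179), and without KO 2 and WT 4 it was 0.20 and not called (adjusted p = 0.0689). Zfp948 was at 29.0 to 33.1 CPM in KO and 23.5 to 30.2 CPM in WT, with a log2 fold change of 0.21 ± 0.07 (edgeR adjusted p = 0.0345). It lost the call in 8 of the 12 fits that left out 1 library, without WT 1, 2, 3 or 5 or KO 2, 3, 4 or 6, where adjusted p ran from 0.0506 to 0.0777. The remaining genes of the neighbourhood, Zfp820, Zfp942, Zfp944 and Zfp947, ran from -0.055 to 0.032 on the log2 scale and were not called. In this fit neighbours in this cluster therefore went both ways, with 2 of 8 higher and 2 lower (25.0% each). Over all tested genes 15.3% were higher and 14.4% lower. The median log2 fold change of the 8 was -0.008. With the density offsets described below 0 of the 8 were higher and 2 lower, and their median was -0.143. There 8.32% of all tested genes were higher and 7.85% lower.

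Among the 10 risers Zfp938 had the smallest p. It encodes a KRAB-pattern protein with 10 fingers and lies on chromosome 10 at 82224850 to 82241280 on the minus strand. KO libraries held 40.5, 42.9, 47.0, 42.6 and 44.1 CPM, and WT libraries 33.3, 35.1 and 38.3 CPM as lowest, median and highest, with no overlap. The means were 35.8 ± 1.81 CPM in WT and 43.4 ± 2.39 in KO, a log2 fold change of 0.28 ± 0.05 (SE, edgeR adjusted p = 0.00191). Of the 56 genes 2 were higher in all KO libraries than in any WT library, Zfp938 and Zfp949, and none was lower in all. Over all tested genes 5.84% separated upward and 4.80% downward.

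Zfp949 had the largest rise of the 56, and 1 library carried much of it. KO 1, 2, 3 and 4 held 45.4, 43.2, 42.6 and 42.9 CPM, just above the WT range of 34.2 to 41.2 CPM, while KO 6 held 67.8 CPM. The log2 fold change was 0.35 ± 0.11 (SE, edgeR adjusted p = 0.0236). Without KO 6 it was 0.20 ± 0.06 and still called (adjusted p = 0.0255). The gene, on chromosome 9 at 88548020 to 88571061, shares no 50-base stretch with another annotated gene.

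Zfp866 and Zfp846 rose with partial overlap. Zfp866, in a neighbourhood of 6 of these genes on chromosome 8, held 49.5, 64.4, 59.5, 56.6 and 51.4 CPM in KO and at most 51.7 CPM in WT, in WT 4. Its log2 fold change was 0.25 ± 0.07 (SE, edgeR adjusted p = 0.0114), while the other 5 genes there, Zfp868, Zfp869, Zfp930, Zfp963 and Zfp964, were not called. Zfp846, on chromosome 9, held 20.5, 26.1, 25.4, 22.8 and 27.3 CPM in KO and 16.3, 19.4 and 22.8 CPM as lowest, median and highest in WT, a log2 fold change of 0.34 ± 0.10 (edgeR adjusted p = 0.0169). KO 1 lay inside the WT range in both genes, and KO 6 did in Zfp866.

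No KRAB pattern was found in Zfp827, Zfp831, Zfp846 and Zfp956. Zfp827, on chromosome 8, is the mouse counterpart of ZNF827, which recruits the NuRD remodelling complex to telomeres. It held 96.7, 109.8, 100.7, 105.5 and 113.3 CPM in KO and 81.1, 90.8 and 102.2 CPM as lowest, median and highest in WT. The log2 fold change was 0.20 ± 0.06 (SE, edgeR adjusted p = 0.0175), and without KO 6 it was 0.18 and not called (adjusted p = 0.0514). Zfp831, on chromosome 2, codes for the longest protein of the set, 1628 residues with 2 finger patterns. KO libraries held 62.9 to 79.4 CPM and WT libraries 48.9 to 70.3 CPM, with 1 KO library above the WT range (log2 fold change 0.25 ± 0.08, edgeR adjusted p = 0.0231). Without KO 3 it was 0.20 and not called (adjusted p = 0.0748).

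Zfp956, on chromosome 6, held 49.5, 49.0, 48.3 and 47.1 CPM in KO 2, 3, 4 and 6, above the WT range of 33.2 to 43.9 CPM, and 40.1 CPM in KO 1, inside it. The log2 fold change was 0.27 ± 0.08 (SE, edgeR adjusted p = 0.0178), and without KO 2 and WT 4 it was 0.21 and not called (adjusted p = 0.0537). Its exons overlap those of Zfp783 on the same strand, so reads of either gene may be counted for the other. Zfp933, on chromosome 4, held 26.8 CPM in KO 1, inside the WT range of 23.5 to 30.8 CPM, and 31.5 to 36.4 CPM in the other KO libraries. Its log2 fold change of 0.27 ± 0.09 (edgeR adjusted p = 0.0288) was lost in 5 of 12 fits that left out 1 library: without KO 2, KO 3, KO 6, WT 5 or WT 7 the adjusted p was 0.0718, 0.0808, 0.0554, 0.0566 and 0.0545. By the Wald test of DESeq2 there were 8 risers and 3 fallers among the 56, where 11.2% of all genes were higher and 14.7% lower. Zfp933 and Zfp948 were the risers it did not call.

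**Figure D2:**
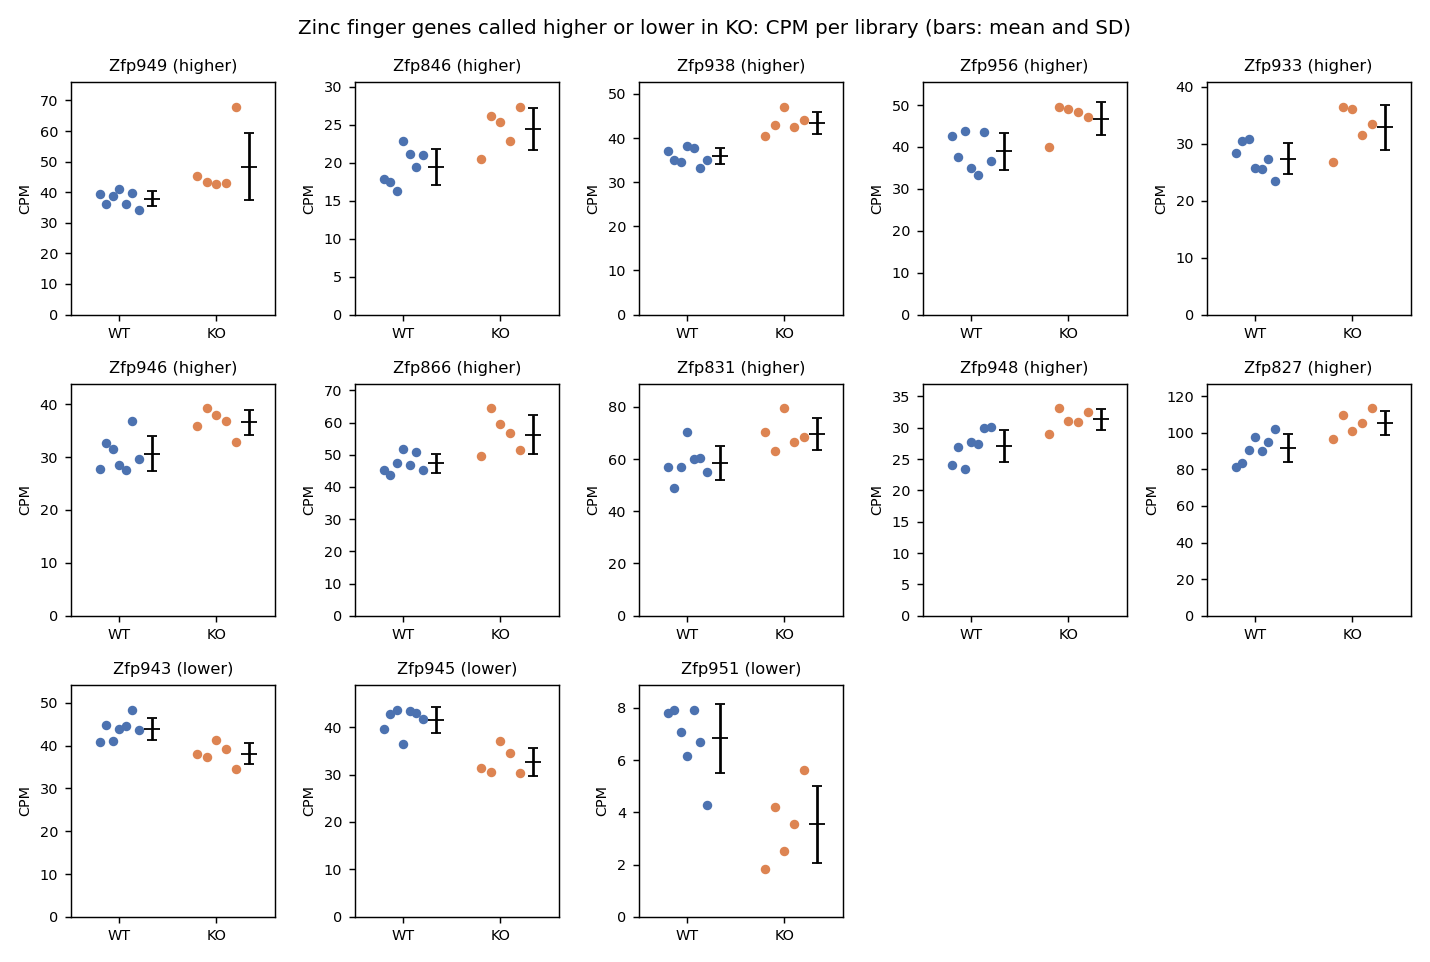
CPM in each library (points) for the 13 called genes, ordered by fold change, with the mean and SD of each group beside the points; each vertical axis starts at 0. Zfp938 and Zfp949 separate the groups upward, and KO 6 stands above all other libraries in Zfp949.

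Levels were compared between genes per exonic length. On the scale of CPM per kb of exon the 56 genes ran from 0.749 (Zfp964) to 35.6 (Zfp869), with a median of 7.56 against 14.3 over 14228 tested genes with a length, and 46 of the 56 lay below that median. After Zfp869 came Zfp821 at 21.5, Zfp932 at 20.6, Zfp938 at 19.2 and Zfp871 at 16.8. Of these 5 genes 1 was called, Zfp938, a share near that of all 56. Zfp869 had a log2 fold change of -0.002 ± 0.070 (SE, edgeR adjusted p = 0.988), Zfp821 of 0.11 ± 0.06 (0.173) and Zfp871 of 0.11 ± 0.08 (0.352).

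Zfp932, a repressor of endogenous retroviruses in mouse embryonic stem cells, held 37.8, 42.6, 38.6, 36.8 and 45.3 CPM in KO and 40.4, 45.6 and 48.0 CPM as lowest, median and highest in WT. With 3 of 5 KO libraries below the WT range, the log2 fold change of -0.16 ± 0.06 (SE) missed the threshold (edgeR adjusted p = 0.0761). It passed without KO 6, at -0.20 (adjusted p = 0.0307), and with DESeq2's size factors, at -0.18 (adjusted p = 0.0483). In sequence 37.0% of its 50-base stretches also occur in another gene, most of all in Gm15446, so its counts are uncertain. Zfp809, which silences retroviruses with a proline primer binding site, and Zfp830, a splicing-associated protein, are given for their known roles outside the naming rule. Zfp809 held 13.3 to 20.9 CPM in WT and 14.1 to 18.2 CPM in KO, with a log2 fold change of 0.12 ± 0.11 (SE, edgeR adjusted p = 0.457). Zfp830 was at 21.4 CPM in both groups, with a log2 fold change of -0.001 ± 0.103 (adjusted p = 0.997).

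Features that did not define the set are described by counts alone, without a test, beside 15.3% higher and 14.4% lower over all tested genes. Of the 43 genes with a KRAB pattern 6 rose and 3 fell, and of the 12 translated genes without one 4 rose and none fell. The median log2 fold changes of these classes were 0.031 and 0.117. With the density offsets described below, 8.32% of all tested genes were higher and 7.85% lower. There 1 KRAB gene was higher (2.33%) and 7 were lower (16.3%), and none of the 12 others was called by edgeR. The medians of the 2 classes were then -0.095 and -0.043. Of the 34 genes with 10 or more finger patterns 7 rose and 3 fell, and of the 21 with fewer 3 rose and none fell. With the offsets these counts were 1 and 5, and 0 and 2. At least 1 transcript annotated as an NMD target was found for 10 of the 56, and 4 of these rose (Zfp827, Zfp846, Zfp938 and Zfp956) and 1 fell (Zfp943). Among all tested genes with such a transcript 21.2% were higher and 12.5% lower. Of the 46 zinc finger genes without one 6 rose and 2 fell, where 1382 of 10487 tested genes without one were higher and 1577 lower. With the offsets 1 of the 10 was higher and 2 were lower, against 12.3% and 5.91% of all tested genes with such a transcript. Counts were per gene, so transcripts were not told apart.

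Sequence sharing bears on how well these genes can be counted one by one. A median of 1.99% of a gene's 50-base stretches occurred in transcripts of another annotated gene, and 17 genes shared under 1%. In 11 genes the share was at least 20%, among them Zfp960 (82.7%, most with Zfp97) and Zfp935, all of whose stretches also occur in the overlapping gene Gm49359. With group as the only term and TMM scaling edgeR called none of these 11, where 15.3% of all tested genes were higher and 14.4% lower. Of these 11 genes 2, Zfp932 and Zfp960, had an unadjusted p under 0.05. Zfp932 was called lower with DESeq2's size factors (adjusted p = 0.0483), and Zfp960 with the density offsets described below (adjusted p = 0.033). By the Wald test of DESeq2 0 of the 11 passed, where 11.2% of all genes were higher and 14.7% lower. So few genes cannot show whether sharing bears on the calls. Of the 13 called genes Zfp866 shared the most, 6.92%.

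The summed level of these genes overlapped between the groups, at 1565 to 1795 CPM over the WT libraries against 1627 to 1860 CPM over the KO libraries. KO 1, at 4990643 total counts the shallowest KO library, had the lowest sum of the KO group, 1627 CPM. WT 4, at 5425774 counts the deepest WT library, had the highest of the WT group, 1795 CPM. Depth did not order all libraries: WT 2, at 5149711 counts the next deepest WT library, had the lowest sum of all 12 (1565 CPM), WT 6 at 4754859 counts had 1730 CPM, and KO 3, the deepest library, had 1793 CPM against 1860 CPM in KO 2. In KO 1 23 of the 56 genes lay above their WT mean, against 31 to 42 in the other KO libraries. The part of depth in these values was not tested on its own.

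**Figure D3:**
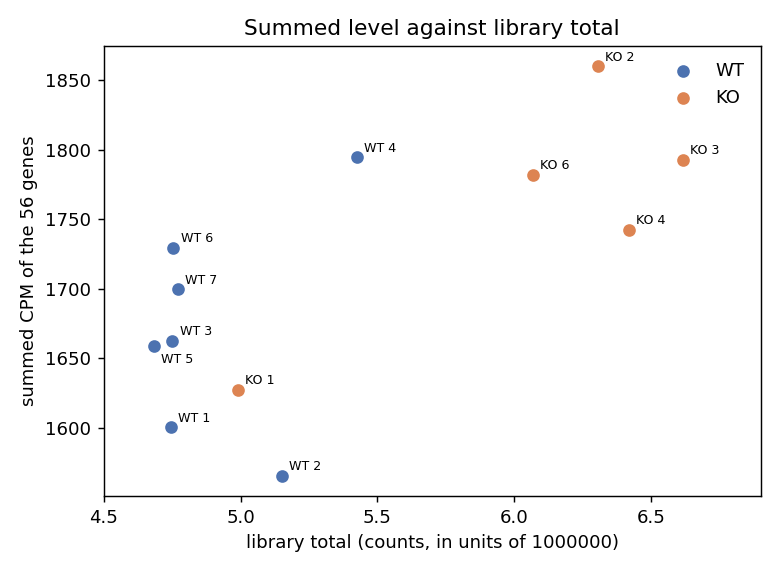
Summed CPM of the 56 genes (vertical axis, not starting at 0) against the total counts of the library (horizontal axis), 1 point per library. KO 1 lies among the WT libraries at 1627 CPM, and WT 4, at 1795 CPM, reaches the level of the deeper KO libraries.

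Fold changes of all genes also followed how densely a gene is counted per exonic base. In the third to seventh of 10 equal bins of rising CPM per kb, which hold 43 of the 56 genes, the median log2 fold change of all tested genes fell from 0.151 to 0.016. Per bin, 14.5% to 25.7% of all tested genes were called higher there and 2.25% to 9.56% lower. The medians of the zinc finger genes in these bins did not fall, at 0.086, 0.079, 0.090, 0.097 and 0.114 over 9, 15, 10, 6 and 3 genes. In the 2 lowest bins, with 6 of the genes each, they were 0.009 and 0.009, against 0.250 and 0.201 over all tested genes. After this trend was taken out of every library by offsets, 1 zinc finger gene was higher (1.79%) and 7 were lower (12.5%), against 8.32% and 7.85% of all tested genes. The median log2 fold change of the 56 turned to -0.066, against 0.003 over all tested genes. The riser that kept its call was Zfp938, at 0.25 ± 0.05 (SE, edgeR adjusted p = 0.00491), and the 3 fallers kept theirs, at -0.48 for Zfp945, -0.27 for Zfp943 and -1.15 for Zfp951. The 9 other risers stayed above 0 but were not called. The 4 further genes called lower, named after their values were seen, were Zfp941, Zfp952, Zfp958 and Zfp960, at -0.25, -0.18, -0.32 and -0.45.

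With the log2 library total as a covariate beside the group, none of the 56 was called higher or lower (0 of 56 by edgeR, with 9 at an unadjusted p under 0.05), and of all tested genes 0.588% were higher and 0.0771% lower. All 13 genes kept their direction. Zfp951 was at -1.23 ± 0.44 (SE, adjusted p = 0.255), Zfp945 at -0.36 ± 0.12 (0.226) and Zfp938 at 0.16 ± 0.08 (0.508). Since depth differed with genotype, this fit cannot fully separate them.

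**Figure D4:**
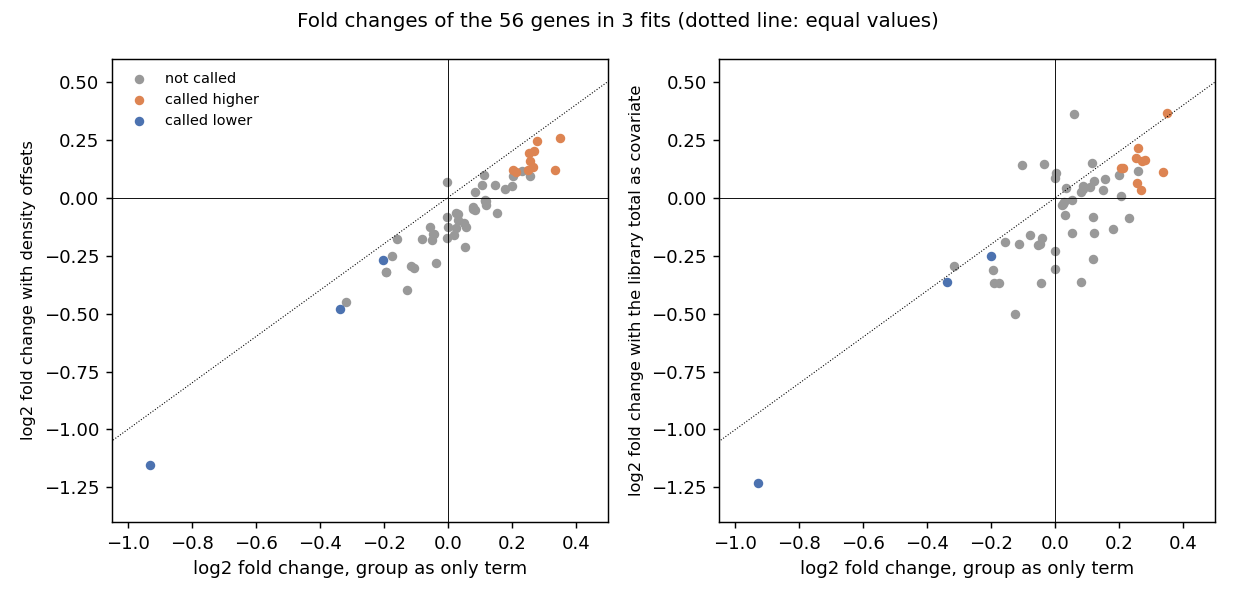
Log2 fold change of each of the 56 genes with density offsets (left, vertical axis) and with the library total as covariate (right, vertical axis) against the value with group as the only term (horizontal axes); colours give the call with group as the only term and the dotted line marks equal values. The 13 called genes keep their side of 0 in both panels.

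The co-repressor machinery that KRAB zinc finger proteins work with held genes called in both directions. Of 40 genes of a KAP1 pathway list, all tested, 10 were higher in KO (25.0%, against 15.3% of all tested genes). Another 7 were lower (17.5%, against 14.4%), and the median log2 fold change of the 40 was 0.060. The list also holds the zinc finger genes Zfp57 and Zkscan3, and Zkscan3 is among the 10 higher. Trim28, which encodes KAP1, was at 124.5 ± 3.17 CPM in WT and 117.4 ± 4.64 in KO and was not called (log2 fold change -0.087 ± 0.036 SE, edgeR adjusted p = 0.0766). The genes with the smallest p were Cbx3, which encodes HP1 gamma, H3f3b, which encodes the histone variant H3.3, the deacetylase gene Hdac2 and the maintenance DNA methyltransferase gene Dnmt1.

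Cbx3 fell from 63.6 ± 2.44 to 48.6 ± 4.19 CPM, with KO libraries at 44.4 to 55.2 CPM and WT libraries at 59.1 to 65.9 CPM and no overlap (log2 fold change -0.39 ± 0.06 SE, edgeR adjusted p = 0.000321). H3f3b and Hdac2 fell by 0.27 and 0.25 on the log2 scale and Dnmt1 rose by 0.22, each with no overlap between groups except Dnmt1, where KO 1 lay inside the WT range. These 4 genes were picked for their small p, which favours groups that do not overlap. Among all tested genes 4.80% were lower in every KO library than in any WT library, and 5.84% were higher in every one. In the rest of the list H3f3a also separated downward, and Suv39h2 and Zkscan3 upward. With density offsets 4 of the 40 were higher, against 8.32% of all tested genes, and 7 were lower (17.5%, against 7.85%). The 4 genes with the smallest p kept their calls, at -0.35 for Cbx3, -0.13 for H3f3b, -0.15 for Hdac2 and 0.16 for Dnmt1. With the library total as covariate none of the 40 was called by edgeR, and the adjusted p of these 4 ran from 0.239 for Cbx3 to 0.406 for Dnmt1.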

How the data were processed

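Counts were analysed for 12 libraries, 7 WT and 5 KO, grouped by their titles. The authors deposited 1 table of read counts by RefSeq accession and symbol, with no normalization. Alignment with STAR to mm10 is recorded per the submitters' processing notes. How reads were counted (program, strand, duplicates, gene filter) is not stated in the labels or the table, so counts of overlapping, antisense or near-identical genes are uncertain.

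The test was the quasi-likelihood test of edgeR 4.0.16 (R 4.3.3) on group alone. It used TMM scaling, the filterByExpr filter and Benjamini-Hochberg adjustment over 14274 genes, with a threshold of 0.05. The SE is the fold change divided by the root of the F statistic. Other settings were DESeq2 1.42.0, limma-voom (limma 3.58.1), other factors and filters, a replicate block, each library left out, KO 2 and WT 4 left out, density offsets (lowess, span 0.3), the library total as covariate and a threshold of 0.01. The permutation test used log2 CPM with a pseudocount of 0.5 CPM.

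The finger pattern was C-x(2 to 4)-C-x(12)-H-x(3 to 5)-H in translated GENCODE M21 coding sequences. The genes and lists were chosen with earlier results of these data known. Named were Upf3b, up to 15 called genes a direction, the 5 most abundant per kb, the largest fold change a direction and up to 4 called KAP1 pathway genes. The 2 most alike libraries, WT 6 and WT 7, had a chi-square of 1.02 per degree of freedom (next pair 1.19) and were kept apart. A value this low is about what counting noise alone gives, while WT 2 and WT 4 were at 7.01. Whether WT 6 and WT 7 are independent was not tested. Each library is a separate mouse by its title.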

Additional observations from a re-analysis of the deposited data

Results flagged for a closer look

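In groups of 4 to 10 libraries, a library was singled out where its gap to the nearest other library was large against the range of its group (Dixon's 95% critical value). Of 46 groups examined 3 had such a library, and chance singles one out in about 1 group in 20. Zfp949 was at 67.8 CPM in KO 6, against 42.6 to 45.4 CPM in the other KO libraries. Zfp956 was at 40.1 CPM in KO 1, against 47.1 to 49.5 CPM. Hdac2 was at 84.1 CPM in KO 1, against 74.7 to 77.4 CPM.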

How the results depend on the processing

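DESeq2's size factors, upper-quartile factors, no filter, a filter of 1 CPM in 5 libraries and limma-voom changed no call of the 13 zinc finger genes. With DESeq2's size factors 5 of the 56 genes and 14 other Zfp genes were lower, and 1899 of all genes were higher and 2391 lower, against 2183 and 2050 with TMM. With density offsets 1 of the 56 was higher and 7 were lower (median -0.066), 19 and 21 of the other Zfp genes, 4 higher KAP1 pathway genes, and 1188 and 1121 of all genes. With the library total as covariate 0 of the 56 were higher and 0 lower (median -0.015), 2 and 0 of the other Zfp genes, 0 and 0 of the KAP1 pathway, and 84 and 11 of all genes. Without KO 2 and WT 4 there were 6 higher and 5 lower of the 56, and 2166 and 2189 of all genes. At an adjusted p under 0.01 there were 1 higher and 2 lower of the 56, and 18 and 2 other Zfp genes. The KAP1 pathway list then had 4 and 4, and all genes 1006 and 1145. The cause of these shifts was not tested.

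With the mouse number as a replicate block 2 of the 56 were higher (Zfp827 and Zfp938) and 2 lower (Zfp945 and Zfp951), and 21 and 2 other Zfp genes, 3 and 4 KAP1 pathway genes and 1129 and 1186 of all genes. The labels do not state that the numbers pair the mice. Deviations of same-numbered mice correlated at -0.376 to 0.141 over 5 numbers, and 0 of 5 KO mice correlated best with their own number. KO 2 correlated best with WT 4, and both stood apart in markers of neighbouring tissue. Such differences can hide a pairing, so these correlations cannot settle it.

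Leaving out 1 library at a time gave 7 to 12 higher and 3 to 5 lower of the 56 (5 without KO 2). In the same fits 1585 to 2420 of all genes were higher and 1544 to 2467 lower. The median of the 56 ran from 0.024 to 0.081. Of the other Zfp genes 30 to 60 were higher and 5 to 10 lower (30 and 5 without KO 4). Zfp869 ran from -0.041 to 0.064. Zfp869 was 0.067 with density offsets. A stricter KRAB pattern was found in 29 of the 56. The low counts of Zfp951 (9 to 42 a library) limit its precision.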
